A study of Drosophila melanogaster with 4 samples.

Results

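The regions described here are the HP2 enrichment clusters on 3LHet and 3RHet, the scaffolds of the FlyBase r5 assembly that hold sequenced heterochromatin of the left and right arm of chromosome 3 that was not joined to the arms. All clusters with 3LHet or 3RHet as their sequence name were taken: 301 of the 4728 clusters of replicate 1, 375 of the 4163 of replicate 2 and 616 of the 7037 in the authors' combined list of both replicates. HP2 was mapped by chromatin immunoprecipitation and sequencing (ChIP-seq) in head nuclei of wild-type Oregon-R flies, mixed adults, with the antibody Ab2-90. There were 2 ChIP samples and 2 inputs, 1 input for each ChIP sample by the labels, and all 4 samples shared strain, genotype, stage and tissue. No label ties the replicates to separate collections of flies, and their spread may therefore be technical. A cluster is a region the authors called significantly enriched, and it carries a start, an end and 1 score. No scale for that score is given in the sources used here. Read counts were not part of the lists, so the depth is unknown.

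Heterochromatin is the compact, repeat-rich chromatin around the centromeres of fly chromosomes. Heterochromatin protein HP1 binds it through methylated histone H3 and recruits partner proteins, of which HP2 is one. HP2 is encoded by a gene whose mutations relieve the silencing of reporter genes placed beside heterochromatin. Fly heterochromatin is not devoid of genes, and some of those in it need HP1 for their normal expression. Heads hold neurons, glia, muscle, fat and other cells, so a cluster describes a mixture of nuclei.

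HP2 was enriched over a much larger part of 3LHet than of 3RHet, although the scaffolds are almost equally long (2555491 bp and 2517507 bp). On 3LHet, clusters covered 32.8% of the bases in replicate 1 and 39.8% in replicate 2, and the mean was 36.3% ± 4.97 (SD, n = 2). On 3RHet they covered 14.0% and 17.3%, and the mean was 15.6% ± 2.29 (SD, n = 2). The values of the scaffolds did not overlap. 3LHet exceeded 3RHet by 18.7 percentage points in replicate 1 and by 22.5 in replicate 2, on average by 20.6 ± 2.67 (SD, n = 2), which is larger than the spread between replicates. With 2 replicates of 1 group and clusters of 1 genome, which are not replicates, no test was run on this or the other contrasts between scaffolds. Gaps in the assembly count as uncovered bases, and their part in the difference was not tested.

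In both replicates most of the cover of 3RHet lay in 1 block, while that of 3LHet was spread over its length. On 3RHet, positions 1 to 1258753, left of the midpoint, were 2.31% covered in replicate 1 and 4.45% in replicate 2. The bases right of the midpoint were 25.7% and 30.1% covered. The left side thus held 8.24% of the covered bases of 3RHet in replicate 1 and 12.9% in replicate 2, on average 10.6% ± 3.28 (SD, n = 2). On 3LHet the midpoint, at 1277745, divided the covered bases nearly evenly: the left side held 52.9% and 52.3%, a mean of 52.6% ± 0.38 (SD, n = 2). The middle 50% of the covered bases spanned 1222878 bp of 3LHet in replicate 1 and 1191884 bp in replicate 2, but 250585 bp and 301176 bp of 3RHet. In the combined list they spanned 1245751 bp of 3LHet and 772430 bp of 3RHet. The files do not say which end of either scaffold faces the centromere.

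**Figure D1:**
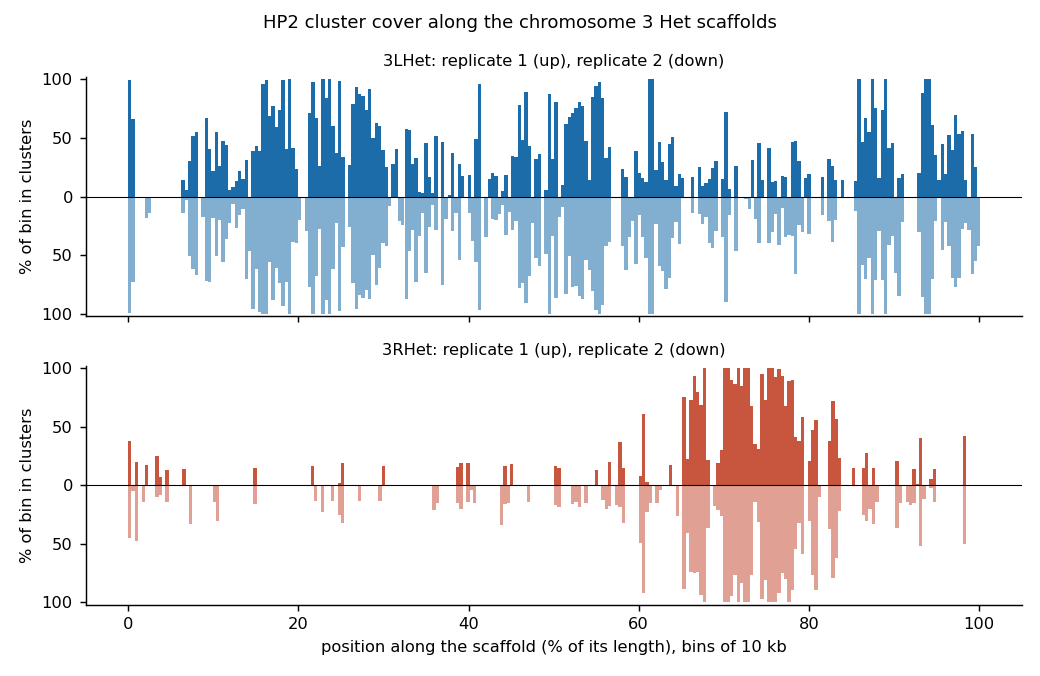
Percent of each 10 kb bin in HP2 clusters (vertical axis) against position as percent of scaffold length (horizontal axis), with replicate 1 drawn upward and replicate 2 downward. Clusters recur along most of 3LHet, where 41 of 256 bins hold none in either replicate, against 137 of 252 on 3RHet. Of the 30 bins of 3RHet that are at least 50% covered in both replicates, 24 fall into 3 runs of adjacent bins in 1 block.

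Windows of 250 kb showed where the block of 3RHet began and ended. From 250001 to 1250000, none of the windows of 3RHet exceeded 2.11% in replicate 1 or 5.39% in replicate 2. The window from 1250001 to 1500000 was 4.61% and 8.75% covered, and the next one 25.6% and 33.8%. Cover then reached 78.4% and 78.5% between 1750001 and 2000000, the highest of any 250 kb window on either scaffold in both replicates. It dropped to 15.4% and 21.2% in the following window and to 5.45% and 9.10% in the one after. From 2500001 on, the last 17507 bp of 3RHet held 0 clusters in both replicates and 2 in the combined list. The left end of 3RHet was slightly more covered than the stretch beside it, with 5.36% and 7.10% in its first 250 kb.

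On 3LHet no 250 kb window was bare. The lowest values were 16.6% in replicate 1, between 1750001 and 2000000, and 22.5% in replicate 2, in the first 250 kb. Cover rose and fell several times along the scaffold. A first maximum lay between 500001 and 750000, at 58.1% and 61.2%. Cover peaked again between 1250001 and 1500000, at 47.6% and 57.0%, and once more between 2250001 and 2500000, at 40.4% and 47.1%. The windows between the maxima, from 750001 to 1250000 and from 1500001 to 2250000, were 16.6% to 27.0% covered in replicate 1 and 22.7% to 36.6% in replicate 2. Every full 250 kb window of 3LHet was more covered in replicate 2 than in replicate 1, by amounts from 1.41 to 11.8 percentage points.

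The curve of covered bases against position gives the same contrast without windows. That of 3LHet lies nearer the line of an even spread than that of 3RHet in both replicates, but it leaves the line where cover rises and falls. That of 3RHet stays low and then climbs steeply: 25% of its covered bases lay before position 1694626 in replicate 1 and 75% before 1945211. In replicate 2 these positions were 1649532 and 1950708.

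**Figure D2:**
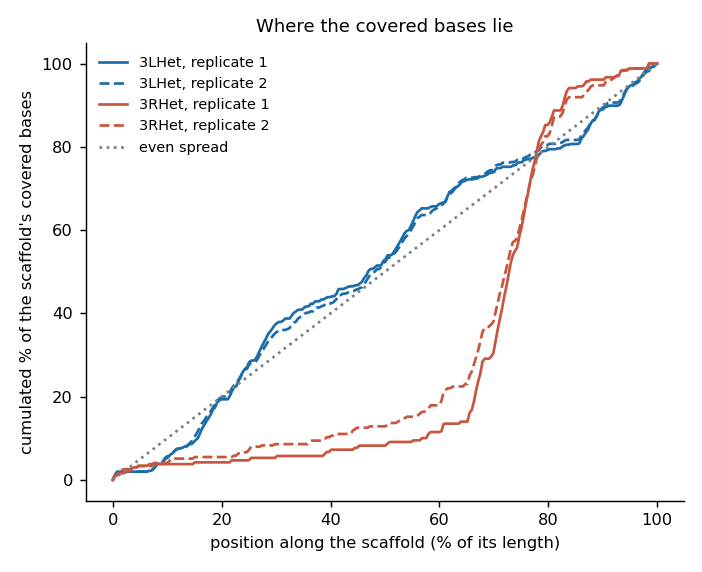
Cumulated percent of each scaffold's covered bases (vertical axis) against position as percent of scaffold length (horizontal axis), for both replicates, with a dotted line for an even spread. Left of the midpoint the 3RHet curves reach 8.24% in replicate 1 and 12.9% in replicate 2, and the 3LHet curves 52.9% and 52.3%.

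The densest 500 kb of each scaffold was located by sliding a window in steps of 10 kb and taking the highest mean of both replicates. Because the window was chosen by cover, its level is a description. On 3RHet it ran from 1610001 to 2110000, and it was 56.5% covered in replicate 1 and 60.3% in replicate 2. On 3LHet it ran from 370001 to 870000, and it was 54.0% and 60.0% covered. The densest parts of both scaffolds were thus covered to nearly the same level, with means of 57.0% ± 4.29 on 3LHet and 58.4% ± 2.70 on 3RHet (SD, n = 2 each), a difference smaller than the spread between replicates. The scaffolds differed in what lay outside. The remaining 3LHet was 27.6% and 34.9% covered, and the remaining 3RHet 3.48% and 6.58%, so that the difference grew to 26.2 ± 2.94 percentage points (SD, n = 2). The window made up 19.9% of the length of 3RHet and held 80.1% of its covered bases in replicate 1 and 69.4% in replicate 2, but 48.1% of those of the combined list. The window of 3LHet made up 19.6% of the length and held 32.2% and 29.5%.

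**Figure D3:**
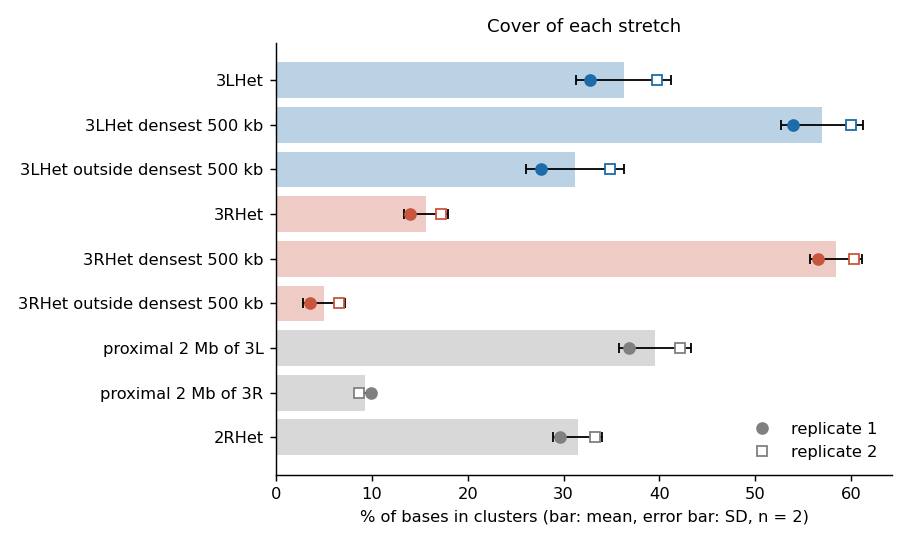
Percent of bases in HP2 clusters (horizontal axis) for each scaffold, its densest 500 kb, the rest of the scaffold, and the compared parts; circles are replicate 1, open squares replicate 2, bars the mean and error bars the SD (n = 2). The densest windows lie at 57.0% and 58.4%, while the rest of 3RHet lies at 5.03% and the rest of 3LHet at 31.2%.

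In bins of 10 kb, 63 of the 256 bins of 3LHet (24.6%) and 30 of the 252 bins of 3RHet (11.9%) were at least 50% covered in both replicates. Over all arms and scaffolds the share of such bins was 3.79%, so both scaffolds lay above the level of the whole assembly. Bins at least 90% covered in both numbered 20 on 3LHet (7.81%) and 11 on 3RHet (4.37%). Bins with no cluster in either replicate made up 16.0% of 3LHet (41 bins) and 54.4% of 3RHet (137 bins). For the bins at least 90% covered and those with no cluster, the share over all arms and scaffolds was not computed. The median bin was 24.3% covered on 3LHet in replicate 1 and 33.8% in replicate 2, and 0% covered on 3RHet in both. The 63 bins of 3LHet formed 27 separate runs of adjacent bins, 13 of them a single bin, and the longest run had 7 bins. The 30 bins of 3RHet formed 8 runs, 4 of them a single bin, and the longest had 10 bins.

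The longest such runs show how the densely covered bins of each scaffold were filled, in every case by several separate clusters. On 3RHet the run from 1870001 to 1970000 had 89.9% of its bases in 11 clusters of replicate 1 and 91.5% in 10 clusters of replicate 2. The run from 1760001 to 1850000 was 92.1% and 92.3% covered, by 6 clusters in each, and that from 1660001 to 1710000 was 82.8% and 83.3% covered. On 3LHet the longest run went from 400001 to 470000, and it was 81.9% and 81.8% covered, by 8 and 5 clusters. The run from 670001 to 730000 was 85.3% and 84.4% covered. The run from 1310001 to 1370000 was the most broken, 72.5% and 76.5% covered by 15 and 12 clusters.

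Stretches with no cluster in either replicate were longer on 3RHet. The longest there spanned 169335 bp, from 373824 to 543158, followed by 150235 bp from 756721 to 906955 and 105656 bp from 266526 to 372181. On 3LHet the longest spanned 104319 bp, from 64225 to 168543, followed by 54275 bp from 2322569 to 2376843 and 40814 bp from 1444623 to 1485436. The combined list was not empty in these 6 stretches. It covered 5.53%, 8.44% and 6.54% of those on 3RHet and 11.7%, 8.64% and 22.2% of those on 3LHet, each in the order given. Bases without a cluster fell short of the authors' calling rule, and HP2 may still be present on them.

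The scaffolds differed in the number and spacing of their clusters, and little in the median length of the clusters as listed per replicate. 3LHet held 221 clusters in replicate 1 and 266 in replicate 2, or 8.65 and 10.4 per 100 kb. 3RHet held 80 and 109, or 3.18 and 4.33 per 100 kb. The difference of 5.77 ± 0.43 clusters per 100 kb (SD, n = 2) was larger than the spread between replicates. The median cluster of 3LHet was 2142 bp long in replicate 1 and 2199 bp in replicate 2, and that of 3RHet 2034 bp and 2032 bp. This difference of 137.5 ± 41.7 bp (SD, n = 2) was small, but it depended on the clusters used. It turned to -540 bp when clusters under 2 kb were left out, and it rose to 873 bp with clusters at or above their list's median score, 865 bp with clusters within 1 kb merged and 836 bp in the combined list. The upper part of the lengths also overlapped between scaffolds: the longest cluster of 3LHet measured 30575 bp in replicate 1 and 29265 bp in replicate 2, and that of 3RHet 31973 bp and 34779 bp. Clusters over 5 kb made up 15.4% and 17.3% of those on 3LHet and 25% and 16.5% of those on 3RHet, so that this share was higher on 3RHet in replicate 1 and about level in replicate 2. These long clusters held 48.3% and 51.4% of the summed cluster length on 3LHet and 65.3% and 55.2% on 3RHet.

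Neighbouring clusters stood closer on 3LHet. The median gap from the end of one cluster to the start of the next measured 3602 bp and 2530 bp on 3LHet in replicates 1 and 2, against 5960 bp and 6267 bp on 3RHet. The difference was -3048 ± 975 bp (SD, n = 2), and it turned to 1742 bp when clusters under 2 kb were left out. The scaffolds also parted at the long gaps. Gaps over 20 kb made up 10.0% of the gaps of 3LHet in replicate 1 and 4.91% in replicate 2, but 32.9% and 24.1% of those of 3RHet. Short gaps under 1 kb were similar in share in replicate 1, at 23.6% on 3LHet and 24.1% on 3RHet. In replicate 2 their share was higher on 3LHet, at 29.4% against 21.3%. The widest gap within 1 list was 151875 bp on 3LHet and 215354 bp on 3RHet, both in replicate 1.

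**Figure D4:**
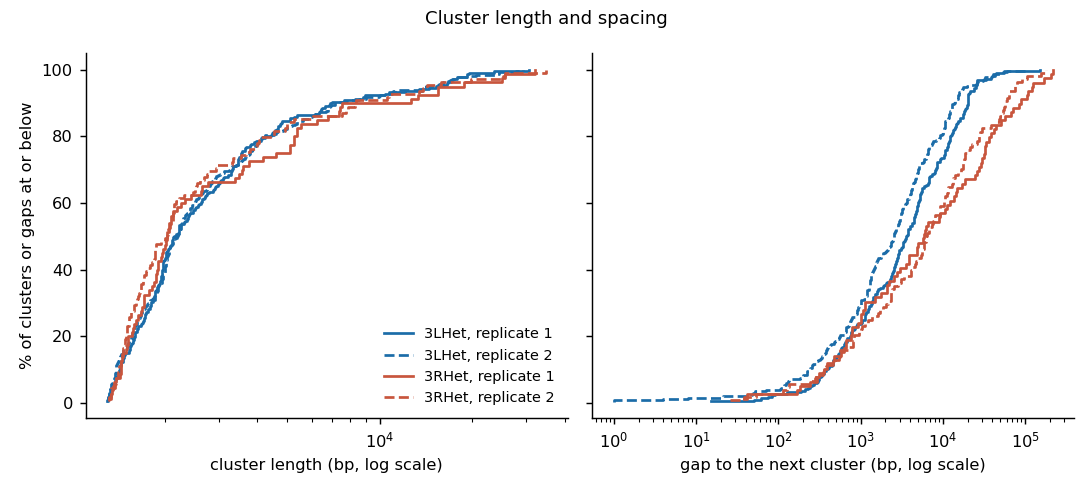
Percent of clusters at or below a given length (left) and percent of gaps at or below a given size (right), on log axes, for each scaffold and replicate. The length curves have close medians, from 2032 bp to 2199 bp. In replicate 1 they part above these, with 75th percentiles of 3546 bp on 3LHet and 4709 bp on 3RHet. The gap curves have medians from 2530 bp to 6267 bp. In replicate 2 they differ already at the 25th percentile, 758 bp on 3LHet and 1330 bp on 3RHet.

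Length and spacing on 3RHet differed between its block and the rest. Inside the densest 500 kb the median cluster had 3668 bp in replicate 1 and 3860 bp in replicate 2, with median gaps of 1512 bp and 1363 bp. Outside it the median length was 1656 bp and 1676 bp, near the shortest cluster called in the replicates (1301 bp), and the median gaps were 29507 bp and 13118 bp. Of the clusters outside the block, 2.63% and 3.08% were longer than 5 kb, or 1 in replicate 1 and 2 in replicate 2. The same division of 3LHet was milder: 2958 bp and 3274 bp inside against 2102 bp and 2122 bp outside, with median gaps of 2568 bp and 2043 bp inside and 4514 bp and 2563 bp outside. The windows were chosen by cover, which long and close clusters raise, so these contrasts are descriptions.

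The clusters found in both replicates that were longest or scored highest were all in the block on 3RHet. Long clusters raise the cover by which the block's window was chosen, so this placement is a description. A cluster counts as shared here if the other replicate's clusters overlap 50% or more of its bases. The longest on 3RHet ran from 1884768 to 1916740 (31973 bp) and scored 1.57 in replicate 1, and replicate 2 covered 99.9% of it with 2 clusters. The next ran from 1819198 to 1844712 (25515 bp) and scored 2.57 in both replicates. The cluster from 1756999 to 1782009 (25011 bp) scored 2.22 in replicate 1 and 2.17 in replicate 2. The highest score on 3RHet belonged to the cluster from 1798886 to 1817685 (18800 bp), with 2.68 and 2.86. The cluster from 1923810 to 1939305 (15496 bp) scored 1.71 and 1.85 and was the least covered of the named ones in replicate 2, at 88.5%. The cluster from 1698874 to 1712163 (13290 bp) completed the 5 highest scores, with 2.50 and 2.52.

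On 3LHet the corresponding clusters were scattered over the scaffold. The longest lay near the right end, from 2381169 to 2411743 (30575 bp) and scored 2.99 in replicate 1, and replicate 2 covered 99.2% of it with 2 clusters that scored up to 3.13. The next, from 1558772 to 1582306 (23535 bp), scored much lower, at 1.12 in replicate 1 and 1.17 in replicate 2. The cluster from 400393 to 419914 (19522 bp) scored 1.68 and 1.64, and that from 1400541 to 1419781 (19241 bp) 1.54 and 1.61. The cluster from 577387 to 596597 (19211 bp) scored 2.27 and 2.48, and its neighbour from 598165 to 616003 (17839 bp) 3.20 and 3.41. The authors' combined list joined these neighbours into 1 cluster from 577132 to 616172 (39041 bp), its longest on 3LHet. The highest score of a shared cluster on 3LHet was that from 1391001 to 1399536 (8536 bp), with 3.41 and 3.70. The others among the 5 highest were the cluster from 2188628 to 2203107, with 3.20 and 3.24, and that from 2229629 to 2245650, with 2.64 and 2.59. Each of the 9 clusters named for 3LHet was at least 94.4% covered in replicate 2. Which genes or repeats lie at these positions was not analysed here.

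Median scores differed less between the scaffolds than cover did. They were 0.746 on 3LHet in both replicates, and 0.823 and 0.776 on 3RHet. The difference, 3LHet minus 3RHet, was -0.077 in replicate 1 and -0.030 in replicate 2 on the authors' scale. At the top the order was the other way round: the highest score was 3.67 and 3.70 on 3LHet and 2.68 and 2.86 on 3RHet. The 3.67 belonged to a cluster of 1314 bp with no base in a cluster of replicate 2, and the best shared cluster of 3LHet in replicate 1 scored 3.41. Among all clusters of replicate 1, the best shared cluster of 3LHet ranked 8 by score and that of 3RHet 52, and in replicate 2 they ranked 3 and 43. Longer clusters tended to score higher, with a Spearman rho across clusters of 0.56 and 0.50 on 3LHet (221 and 266 clusters) and of 0.27 and 0.51 on 3RHet (80 and 109 clusters). Clusters of 1 list share library and threshold, so these values describe the lists.

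**Figure D5:**
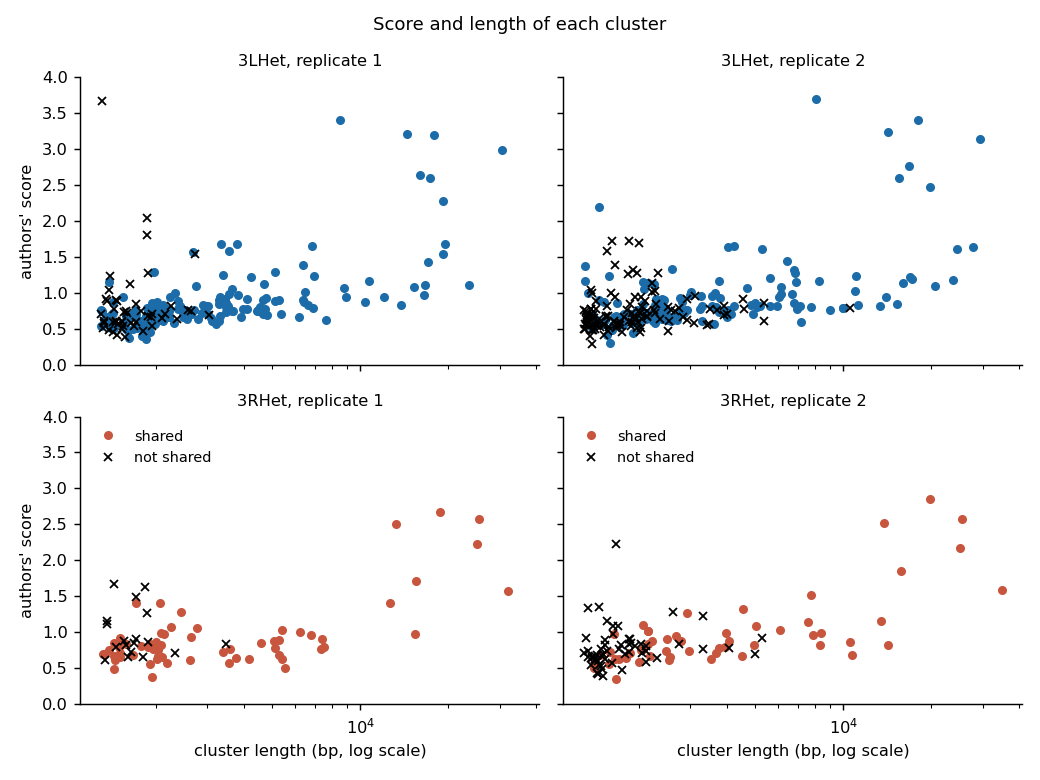
The authors' score (vertical axis) against cluster length (horizontal axis, log scale) for every cluster of each scaffold and replicate; circles are shared clusters and crosses clusters that were not shared. All clusters over 5 kb are shared in replicate 1 (34 on 3LHet and 20 on 3RHet), against 98.8% over its whole list. In replicate 2, 43 of 46 on 3LHet and 17 of 18 on 3RHet are shared, against 96.0%. The crosses lie mostly at short lengths, one of them with the score of 3.67 on 3LHet.

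Against the sequence nearest to them on the assembled chromosome, the scaffolds resembled their own arm in part. 3LHet was slightly less covered than the 2 Mb at the centromere side of 3L, which was 36.9% and 42.2% covered, and the difference (3LHet minus 3L) was -3.25 ± 1.20 percentage points (SD, n = 2). Its clusters were about as frequent as there, 9.53 ± 1.25 against 9.50 ± 0.42 per 100 kb (SD, n = 2 each). 3RHet was more covered than the 2 Mb at the centromere side of 3R in both replicates, 14.0% against 9.90% and 17.3% against 8.65%, a difference of 6.36 ± 3.18 points (SD, n = 2). Their cluster densities did not differ beyond the spread, at 3.75 ± 0.81 and 4.00 ± 0.35 per 100 kb. Clusters over 5 kb made up 1.18% and 1.33% of those on proximal 3R, against 25% and 16.5% on 3RHet as a whole. Outside its densest 500 kb, 3RHet was 3.48% and 6.58% covered, less than proximal 3R in both replicates. That remainder held 1.88 and 3.22 clusters per 100 kb, against 4.25 and 3.75 on proximal 3R. Of its clusters, 2.63% and 3.08% were over 5 kb. The window left out was chosen by cover, so these values are descriptions. Among the other scaffolds, 2RHet (31.5% ± 2.57 covered, SD, n = 2) lay between 3LHet and 3RHet, and it exceeded 3RHet by 15.6 and 16.0 points. No test was run on these contrasts, for the reason given above.

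Replicate 2 called more on both scaffolds, although its whole list was shorter. It held 45 more clusters on 3LHet than replicate 1 and 29 more on 3RHet. It was the more covered in 139 of the 256 bins of 3LHet and the less covered in 66, and on 3RHet in 78 and 29 of the 252 bins. The bases called in both replicates were 62.8% of those called in either on 3LHet and 64.4% on 3RHet, against 67.0% on 2RHet. Independent placement of the same cover would give 21.9% on 3LHet, 8.38% on 3RHet and 18.6% on 2RHet. The value over all arms and scaffolds was not computed. Seen from each list, 85.4% of the covered bases of replicate 1 on 3LHet and 87.4% on 3RHet were also called in replicate 2. In the other direction the values were 70.3% and 71.0%. Bin by bin, the Spearman rho between the replicates was 0.84 over the 256 bins of 3LHet and 0.78 over the 252 bins of 3RHet, a description over bins of 1 assembly. Within the densest 500 kb of 3RHet, 84.4% of the bases called in either replicate were called in both, and in that of 3LHet 74.3%. Independent placement of the cover in these windows would give 41.2% and 39.7%. The windows were chosen by the mean cover of both replicates, which favours overlap, so these values are descriptions.

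By clusters, 172 of the 221 of replicate 1 on 3LHet were shared (77.8%, 95% Wilson interval 71.9% to 82.8%) and 62 of the 80 on 3RHet (77.5%, 67.2% to 85.3%). The share over the whole list of replicate 1 was 74.3%, so neither scaffold stood far from it. For replicate 2, 148 of 266 clusters on 3LHet were shared (55.6%, 49.6% to 61.5%) and 54 of 109 on 3RHet (49.5%, 40.3% to 58.8%), while the share over its whole list was 83.5%. The intervals cover counting error only. All 34 clusters over 5 kb on 3LHet and all 20 on 3RHet were shared in replicate 1, as were 43 of 46 and 17 of 18 in replicate 2. Of the clusters under 2 kb in replicate 1, 55 of 96 were shared on 3LHet (57.3%) and 21 of 37 on 3RHet (56.8%), against 44.9% over its whole list. In replicate 2 these were 30 of 105 (28.6%) and 11 of 53 (20.8%), against 67.2% over its whole list. Over 5 kb the whole lists gave 98.8% in replicate 1 and 96.0% in replicate 2. The longest clusters with no base in the other replicate were all under 5 kb. In replicate 1 these were the clusters from 921409 to 924457 on 3LHet (3049 bp) and from 1457908 to 1459792 on 3RHet (1885 bp). In replicate 2 they were those from 2315577 to 2320117 on 3LHet (4541 bp) and from 1408705 to 1412027 on 3RHet (3323 bp).

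Clusters were also matched one by one where the overlap reached 50% of both, a rule that itself keeps borders close. On 3LHet 131 pairs matched (59.3% of the clusters of replicate 1 and 49.2% of those of replicate 2), with starts a median of 280 bp and ends 264 bp apart. On 3RHet 46 pairs matched (57.5% and 42.2%), with 410.5 bp and 193 bp. The matched cluster was longer in replicate 2 in 71 of 131 pairs on 3LHet and in 30 of 46 on 3RHet. Scores of matched pairs had a Spearman rho of 0.86 on 3LHet and 0.78 on 3RHet, a description over clusters. Some regions were divided differently: 21 clusters of replicate 1 on 3LHet and 10 on 3RHet touched 2 or more clusters of replicate 2, and 27 and 14 clusters of replicate 2 touched 2 or more of replicate 1. Neither the matched shares nor these counts were computed over the whole lists, so they cannot be called particular to these scaffolds.

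The combined list extended the cover of both scaffolds, and it added relatively more to 3RHet. It covered 59.6% of 3LHet and 29.2% of 3RHet. Of its bases, 25.6% on 3LHet and 35.9% on 3RHet lay in no cluster of either replicate. Clusters that touched neither replicate numbered 122 of 361 on 3LHet (33.8%, 95% Wilson interval 29.1% to 38.8%) and 150 of 255 on 3RHet (58.8%, 52.7% to 64.7%), against 31.4% over the whole combined list. They were short, with medians of 1423 bp on 3LHet and 1228 bp on 3RHet, and the longest measured 4781 bp and 2941 bp. The replicate lists hold no cluster under 1301 bp, while the combined list does. At 1301 bp or longer, 23.9% on 3LHet and 39.6% on 3RHet touched neither, against 18.2% over the whole combined list. Of the 150 on 3RHet, 80 lay left of the midpoint, among 117 combined clusters there, and 70 right of it, among 138. The left side of 3RHet rose from 2.31% and 4.45% covered in the replicates to 15.6% in the combined list, while the side with the block reached 42.8%. How much of this rise lay in clusters touching neither replicate was not computed. On 3LHet the combined list covered 59.9% of the left side and 59.3% of the right side.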

How the data were processed

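HP2 ChIP-seq of adult fly heads gave 3 lists of enriched regions: 1 for each of the 2 ChIP replicates and 1 for the replicate set. Per the file headers, coordinates are 1-based on FlyBase r5. Each entry carries the authors' deposited score, on a scale that these sources do not state. The submitters' processing notes name Bowtie 0.12.7 as a tool. Not given in the sources used here are the caller, the threshold, and how the authors combined replicates. Depth is unknown. The scaffold lengths came from the file headers, and 1 combined cluster that ran 513 bp past the end of 3RHet was trimmed. Covered bases were counted once. A cluster was placed by its midpoint. Bins of 10 kb were used, the last one of each scaffold being shorter. Python 3.11.15, numpy 2.4.6, scipy 1.17.1, pandas 2.3.3 and matplotlib 3.10.9 were used. The functions were checked on 20 simulated lists of 100 clusters, and all 20 were recovered.

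Per scaffold, the rule for named regions took from replicate 1 the 5 longest shared clusters and the 5 shared clusters of highest score. It also took the 3 longest clusters of 1 replicate only (the text gives the longest), the 3 longest stretches without a cluster, the 3 longest runs of bins and the 3 longest combined clusters touching neither replicate. The regions, rules and measures were chosen with earlier results of these data known. Alternatives were high-scoring clusters (no lower than their list's median), merging within 1 kb, a minimum length of 2 kb, use of the combined list, 1 replicate alone, other overlaps and other bin sizes. Leaving out the densest 500 kb was added after the data were seen. Genes, repeats and sequence were not analysed, since the gene table at hand is on another release of the genome.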

Additional observations from a re-analysis of the deposited data

How the results depend on the processing

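3LHet stayed above 3RHet in share covered and in clusters per 100 kb under every single alternative. When clusters of the combined list were also merged within 1 kb, 3LHet had 193 and 3RHet 197, so that their density was no longer higher on 3LHet. Values below are means of both replicates, except for the combined list. The share of 3LHet (36.3%) became 27.3% with high-scoring clusters (no lower than their list's median), 29.9% with clusters of at least 2 kb, 59.6% in the combined list and 31.2% without the densest 500 kb. That of 3RHet (15.6%) became 12.6%, 12.8%, 29.2% and 5.03% in the same order, and their difference (20.6 points) 14.6, 17.1, 30.4 and 26.2. The difference in clusters per 100 kb (5.77) became 2.80 with high scores, 4.07 with clusters within 1 kb merged, 3.63 with at least 2 kb and 4.00 in the combined list. The difference in median length (137.5 bp) became 873 bp with high scores, 865 bp merged and 836 bp in the combined list, and reversed to -540 bp with at least 2 kb. The difference in median gap (-3048 bp) became -7499.5 bp merged and reversed to 1742 bp with at least 2 kb. The left side's part of the covered bases of 3LHet (52.6%) became 54.9% with high scores, 53.2% with at least 2 kb and 50.3% in the combined list. That of 3RHet (10.6%) became 3.65% with at least 2 kb and 26.7% in the combined list. Shared bases of 3LHet (62.8% of those in either) became 61.3% with high scores, 63.6% merged and 67.0% with at least 2 kb, and those of 3RHet (64.4%) 60.8%, 65.7% and 73.6%. For these changes the cause was not tested. With 1 replicate alone the difference in share was 18.7 or 22.5 points. No paired analysis was possible because the lists hold no values of the inputs to pair with a ChIP replicate; differences between scaffolds were taken within each replicate. Unknown depth limits the calls.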

Other observations

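The top of the combined list held clusters of near the shortest length it reports, 1001 bp, that no replicate's list held. On 3LHet the highest combined score, 3.43, belonged to a cluster from 2106124 to 2107124 (1001 bp), and on 3RHet the highest, 3.28, to one from 1143488 to 1144488 (1001 bp). Next on 3RHet among clusters touching neither replicate came the cluster from 427616 to 428616 (1001 bp), with 2.70, and that from 397416 to 398418 (1003 bp), with 2.43. Both of these lie in the longest stretch of 3RHet without a replicate cluster. The shortest cluster of either replicate's list measured 1301 bp, so a region this short appears in neither list. Of the combined clusters touching neither replicate, 49 of 122 on 3LHet (40.2%) and 83 of 150 on 3RHet (55.3%) were shorter than 1301 bp, against 52.4% over the whole combined list. Among combined clusters of at least 1301 bp, 73 of 306 on 3LHet (23.9%) and 67 of 169 on 3RHet (39.6%) touched neither replicate, against 18.2% over the whole list. These regions were singled out after their values were seen.

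Short clusters of high score also stood alone in single replicates. On 3LHet the highest score of replicate 1, 3.67, belonged to a cluster from 800553 to 801866 (1314 bp) with no base in a cluster of replicate 2, and the combined list scored the cluster there 1.70. On 3RHet the cluster from 1717772 to 1719438 (1667 bp) of replicate 2 scored 2.22 with no base in a cluster of replicate 1, and the combined list scored it 1.51. Of the clusters scoring over 2, 2 of 9 on 3LHet in replicate 1 and 1 of 5 on 3RHet in replicate 2 were not shared, and these 3 were all under 2 kb. The other lists had 0 unshared clusters over that score, among 8 on 3LHet in replicate 2 and 4 on 3RHet in replicate 1. No share over the whole lists was computed at this score, so these few clusters cannot be set against it. Of all clusters under 2 kb, whatever their score, 44.9% were shared in the whole list of replicate 1 and 67.2% in that of replicate 2.

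The longest combined clusters touching neither replicate were those from 2152376 to 2157156 on 3LHet (4781 bp, score 0.449), from 1449386 to 1453056 (3671 bp, 0.798) and from 916738 to 920082 (3345 bp, 0.380). On 3RHet they were those from 1441840 to 1444780 (2941 bp, 0.405), from 1270312 to 1273194 (2883 bp, 0.522) and from 750530 to 753356 (2827 bp, 0.542).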
